A study of Homo sapiens with 30 samples.

Results

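SPEN is a very large nuclear RNA-binding protein that bridges RNA, or DNA-bound factors such as RBPJ, to the NCoR and SMRT corepressors and the histone deacetylase HDAC3 through its SPOC domain. It is the main silencing partner of XIST, the long noncoding RNA that coats the X chromosome. A small interfering RNA (siRNA) can also lower transcripts it was not designed for, which is why a knockdown is usually repeated with independent siRNAs.

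ZNF812P, SLC35G3, DLEC1, ELOVL7 and TNFRSF1B are 5 of the 28307 genes in the count tables. They were chosen because their RNA was higher after knockdown of SPEN in naive human embryonic stem cells, and by more with one siRNA mix than with the other. The libraries that showed this cannot also test it, so the siRNA values of the members below are a description, and for the members tests are read only in comparisons that played no part in the choice. Tests of other genes in the siRNA libraries are given as such. ELOVL7 encodes a fatty acid elongase of the endoplasmic reticulum. TNFRSF1B encodes TNFR2, a receptor for tumour necrosis factor that signals to NF-kB. DLEC1, named for its deletion in lung and oesophageal cancer, encodes a protein of cilia. SLC35G3 is an intronless retrogene of the SLC35 family, which holds nucleotide sugar transporters. ZNF812P is a pseudogene of a zinc finger gene.

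Bulk RNA-seq was made from the H9 line in 10 groups of 3 libraries. All naive groups except NaiveCult WT and XACT KO were grown in PXGL medium, and all naive cells were kept on mouse embryonic fibroblast feeders. In PXGL cells siRNA was delivered by lipid transfection, either a scrambled control (siScr) or a SPEN mix, of which mix 1 held 1 siRNA (siSPEN1) and mix 2 held 2 (siSPEN2). The siRNA sequences were not used here. Untransfected PXGL cells were wild type (PXGL WT) or carried a homozygous XIST deletion (XIST KO, replicates of 1 clone). In a further pair of groups, 3 clones with a doxycycline-inducible dCas9 repressor and a guide at the XIST promoter were untreated (CRISPRi UT) or treated with doxycycline (CRISPRi Dox), and no group received doxycycline without the guide. The remaining groups were wild-type naive cells obtained with the NaiveCult medium (NaiveCult WT), such cells with an XACT deletion (XACT KO, 3 clones), XACT being another noncoding RNA that coats the X chromosome, and primed cells (Primed WT). By the study's reporting summary the RNA-seq replicates are biological, with the exception of XIST KO, whose 3 libraries are technical replicates and so stand for 1 biological sample.

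The start regions of 3 of the 5 genes were matched in RefSeq (GRCh38.p14), and the 250 bases before each start are shown as a description. ZNF812P and SLC35G3 had no match. A link between promoter type and the response to the mixes was not tested. Capitals mark the GC box, GGGCGG on either strand, the motif of Sp1-like factors. The stretches are chr1:12166741-12166990 on the plus strand for TNFRSF1B, chr5:60844270-60844519 on the minus strand for ELOVL7 and chr3:38038958-38039207 on the plus strand for DLEC1, each written 5′ to 3′ in the direction of the gene.
TNFRSF1B: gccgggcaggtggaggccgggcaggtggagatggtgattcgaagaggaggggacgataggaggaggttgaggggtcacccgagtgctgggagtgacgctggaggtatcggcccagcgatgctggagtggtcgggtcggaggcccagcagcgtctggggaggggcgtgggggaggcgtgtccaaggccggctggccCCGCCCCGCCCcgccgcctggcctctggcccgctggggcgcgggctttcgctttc
ELOVL7: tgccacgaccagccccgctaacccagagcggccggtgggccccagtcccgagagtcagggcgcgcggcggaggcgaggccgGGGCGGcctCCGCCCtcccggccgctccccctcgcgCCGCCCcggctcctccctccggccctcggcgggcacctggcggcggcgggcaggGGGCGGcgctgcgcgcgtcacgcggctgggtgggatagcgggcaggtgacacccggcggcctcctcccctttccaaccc
DLEC1: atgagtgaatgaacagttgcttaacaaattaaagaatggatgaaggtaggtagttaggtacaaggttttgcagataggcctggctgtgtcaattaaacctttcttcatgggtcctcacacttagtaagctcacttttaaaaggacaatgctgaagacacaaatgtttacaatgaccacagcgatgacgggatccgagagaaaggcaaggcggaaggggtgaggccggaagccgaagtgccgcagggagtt
The upstream stretches of TNFRSF1B and ELOVL7 were rich in G and C (72.4% with 22 CpG, and 80.8% with 35 CpG), against a median of 58.0% and 11 CpG over 35116 promoters of the same length. DLEC1 lay below that median, with 45.6% and 7 CpG. The GC box matched 2 times in TNFRSF1B, where the matches overlap by 1 base, 4 times in ELOVL7 and 0 times in DLEC1, and 42.6% of all promoters held it. The RBPJ core TGGGAA, held by 20.8% of promoters, had no match on either strand of these 3 stretches. The same was so for the AP-1 site TGANTCA (6.57% of promoters), the cyclic AMP response core TGACGT (7.1%), the E-box CACGTG (6.34%), the TATA box, searched as TATAAA (10.7%), and the box named for its letters CCAAT (32%).

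Position and sequence set how well each gene could be counted. In hg38 with GENCODE 44, TNFRSF1B spans 12166991 to 12209228 on the plus strand of chromosome 1, DLEC1 38039205 to 38124025 on the plus strand of chromosome 3, and ELOVL7 60751791 to 60844274 on the minus strand of chromosome 5. SLC35G3 spans 35192520 to 35194393 on the minus strand of chromosome 17, and ZNF812P 9689924 to 9694892 on the minus strand of chromosome 19. ZNF812P shared 89.8% of its 50-base exon words with other genes, 88.7% with the same-strand lncRNA ENSG00000291231 that encloses it and is not listed in the tables, and 12% with ZNF562. SLC35G3 shared 22.9%, of which the copies SLC35G6 (15.9%), SLC35G5 (8.99%) and SLC35G4 (6.96%) held most. Counts of ZNF812P and SLC35G3 are therefore uncertain as to the gene they came from. The other members shared under 1%: 0.0347% for DLEC1, 0.903% for ELOVL7 and 0.419% for TNFRSF1B. The 3′ part of DLEC1 overlaps ACAA1 on the opposite strand, and the counting used strand.

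Library totals ranged from 31190052 to 65637976 counts. SPEN stood at 283.9 to 376 CPM (a gene's count scaled to a library total of 1000000) in siScr, 152 to 177 in siSPEN1 and 152 to 167 in siSPEN2. Its log2 fold change (log2 FC) was -1.01 (SE 0.08) with mix 1 and -1.08 (SE 0.08) with mix 2 (edgeR quasi-likelihood test, adjusted p = 9e-10 and 4.09e-10), and the mixes differed by -0.07 (95% interval -0.22 to 0.08, adjusted p = 0.515). The log2 FC of XIST was -11.4 in XIST KO and -2.61 in CRISPRi Dox, and that of XACT was -4.63 in XACT KO. XIST was also lower with mix 1 than in siScr, though the libraries overlapped (log2 FC -0.28, SE 0.08, edgeR adjusted p = 0.00971). It did not pass with mix 2 (-0.145, adjusted p = 0.182). Summed naive markers were 2866 to 4555 CPM in every naive library and 30.5 to 35.6 CPM in Primed WT, where 3 of the 10 were at 0. These naive markers were 4366 to 4555 CPM with mix 1, above siScr (4028 to 4083 CPM) and mix 2 (4046 to 4171 CPM) without overlap. PXGL WT had 4346 to 4544 CPM. Summed primed markers were 136 to 239 CPM in the naive libraries and 4080 to 4456 CPM in Primed WT. Among the siRNA groups the scrambled control had 234 to 239 CPM, mix 1 had 136 to 144 CPM and mix 2 had 147 to 155 CPM, without overlap between siScr and the mixes. Summed hypoblast markers (6 genes, at most 1 at 0) also stood apart, at 49.6 to 52.8 CPM in siScr, 40.4 to 42.3 CPM with mix 1, 29.7 to 33.4 CPM with mix 2 and 25.6 to 27.8 CPM in PXGL WT. The part of these marker differences in the values below was not tested.

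With mix 1, ZNF812P, SLC35G3 and DLEC1 were about 10-fold above the scrambled control and stayed near it with mix 2. ELOVL7 and TNFRSF1B had the opposite order, with the higher level under mix 2, but they were also above siScr under mix 1. In bulk samples a change in RNA per cell and a change in the share of expressing cells cannot be told apart.

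ZNF812P was at 0.262, 0.0823 and 0.121 CPM in the 3 siScr libraries, 1.90, 2.63 and 1.36 CPM in siSPEN1, and 0.146, 0.232 and 0.378 CPM in siSPEN2. The siSPEN1 libraries stood clear of all others, whereas siScr and siSPEN2 overlapped. The mean was 12.6-fold that of siScr with mix 1 (log2 FC 3.66, SE 0.42) and 1.63-fold with mix 2 (log2 FC 0.72, SE 0.53). Because the siScr libraries held 4 to 11 counts each, the ratio rests on few reads, and without siScr replicate 1 the log2 FC with mix 2 was 1.31 in place of 0.72.

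SLC35G3 was at 0.357, 0.453 and 0.437 CPM in siScr, 3.76, 4.58 and 3.94 CPM in siSPEN1, and 0.854, 0.659 and 0.588 CPM in siSPEN2. All 3 groups were separate, with siSPEN2 closer to siScr than to siSPEN1. The mean was 9.86-fold that of siScr with mix 1 (log2 FC 3.30, SE 0.23) and 1.69-fold with mix 2 (log2 FC 0.72, SE 0.27). Its copy SLC35G5, with which reads may be shared, had means of 0.247 CPM in siScr, 2.14 CPM with mix 1 and 0.725 CPM with mix 2. The other copies held few reads in siScr, siSPEN1 and siSPEN2. SLC35G4 had means of 0.0454, 0.063 and 0.0216 CPM, and SLC35G6 of 0.00793, 0 and 0.0233 CPM. SLC35G5 rose by 3.14 (SE 0.31) on the log2 scale with mix 1 and by 1.55 (SE 0.33) with mix 2 (edgeR adjusted p = 4e-08 and 8.32e-04).

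DLEC1 was at 0.0951, 0.103 and 0.170 CPM in siScr, 1.14, 1.22 and 1.24 CPM in siSPEN1, and 0.195, 0.155 and 0.189 CPM in siSPEN2. The siSPEN1 libraries lay within a narrow range far above the others, and siSPEN2 overlapped siScr. The mean was 9.78-fold that of siScr with mix 1 (log2 FC 3.28, SE 0.38) and 1.47-fold with mix 2 (log2 FC 0.53, SE 0.48). Without siScr replicate 3 the log2 FC with mix 2 was 0.83 in place of 0.53.

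ELOVL7 was at 0.404, 0.226 and 0.170 CPM in siScr, 0.780, 1.25 and 0.846 CPM in siSPEN1, and 1.71, 2.36 and 2.48 CPM in siSPEN2. The 3 groups did not overlap, and the order was siScr, siSPEN1, siSPEN2. The mean was 3.59-fold that of siScr with mix 1 (log2 FC 1.83, SE 0.35), 8.18-fold with mix 2 (log2 FC 3.02, SE 0.32), and 2.28-fold higher with mix 2 than with mix 1 (log2 FC 1.19, SE 0.27).

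TNFRSF1B was at 0.595, 0.103 and 1.09 CPM in siScr, 1.20, 1.96 and 1.20 CPM in siSPEN1, and 3.15, 4.49 and 1.43 CPM in siSPEN2. Both mixes lay above every siScr library, but siSPEN2 replicate 3 fell inside the siSPEN1 range. The mean was 2.43-fold that of siScr with mix 1 (log2 FC 1.31, SE 0.49), 5.07-fold with mix 2 (log2 FC 2.37, SE 0.45) and 2.09-fold higher with mix 2 than with mix 1 (log2 FC 1.06, SE 0.40). Single libraries moved these values: with mix 1 the log2 FC was 0.78 without siScr replicate 2 and 2.10 without siScr replicate 3, and with mix 2 it was 1.83 and 3.16 without the same libraries. Between the mixes it was 0.65 without siSPEN2 replicate 2. Summed trophoblast markers (7 genes, none at 0) were 30.1 to 37.5 CPM in siScr, 28.6 to 30.6 in siSPEN1 and 37.5 to 46.2 in siSPEN2, and their part in the TNFRSF1B values was not tested.

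**Figure D1:**
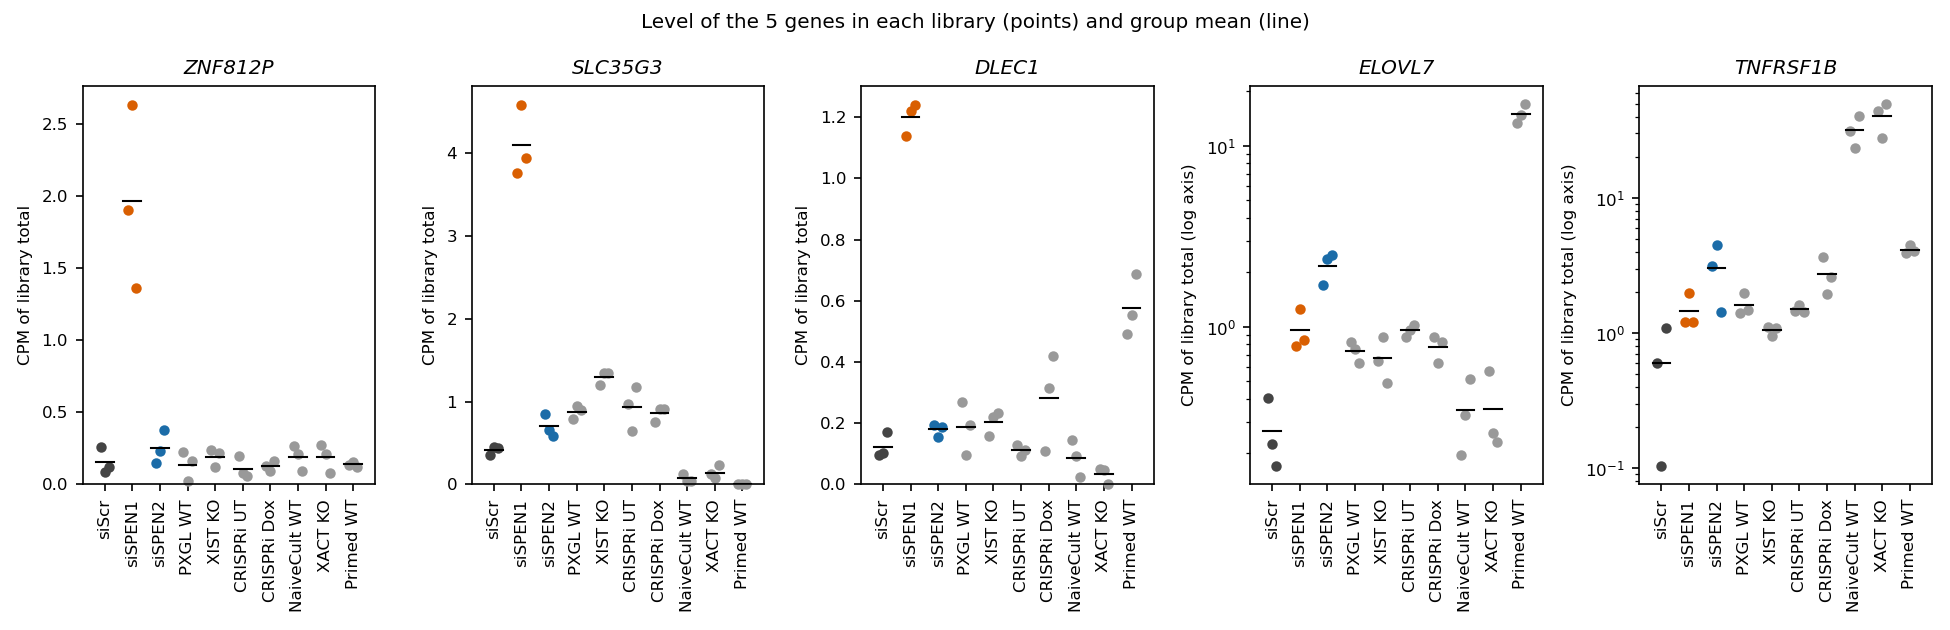
Level of the 5 genes in CPM of the library total (y axis, logarithmic for ELOVL7 and TNFRSF1B) in each of the 30 libraries (points) by group (x axis), with the group mean as a line. ZNF812P, SLC35G3 and DLEC1 peak in siSPEN1 (means of 1.96, 4.10 and 1.20 CPM), ELOVL7 peaks in Primed WT (15 CPM) and TNFRSF1B in the NaiveCult-converted groups (31.7 and 40.6 CPM).

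Among 16448 genes tested in the siRNA libraries, ZNF812P ranked 1st from the highest log2 FC with mix 1, SLC35G3 5th and DLEC1 6th, and with mix 2 the same genes ranked 1009th, 1008th and 1644th. ELOVL7 ranked 57th with mix 1 and 5th with mix 2, and TNFRSF1B 202nd and 16th. At the thresholds of the study (adjusted p below 0.05 and a log2 FC above 1), 5 of 5 were past them with mix 1, as were 2.24% of all genes, and ELOVL7 and TNFRSF1B with mix 2, as were 2.54% of all genes. By an adjusted p below 0.05 alone, the number with mix 1 was 5 by edgeR but 4 by DESeq2, with a replicate block, or without siScr replicate 1, siScr replicate 2 or siSPEN1 replicate 2. With mix 2 it was 3, and 2 to 3 under the alternatives. Of all genes, 20.8% were higher at that threshold with mix 1 and 20.5% with mix 2. Between the mixes, 3 members were lower in siSPEN2, as were 0.93% of all genes past a log2 FC of -1, and 2 were higher, as were 1.57%. The members were picked from these contrasts, so nothing follows from those counts.

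**Figure D2:**
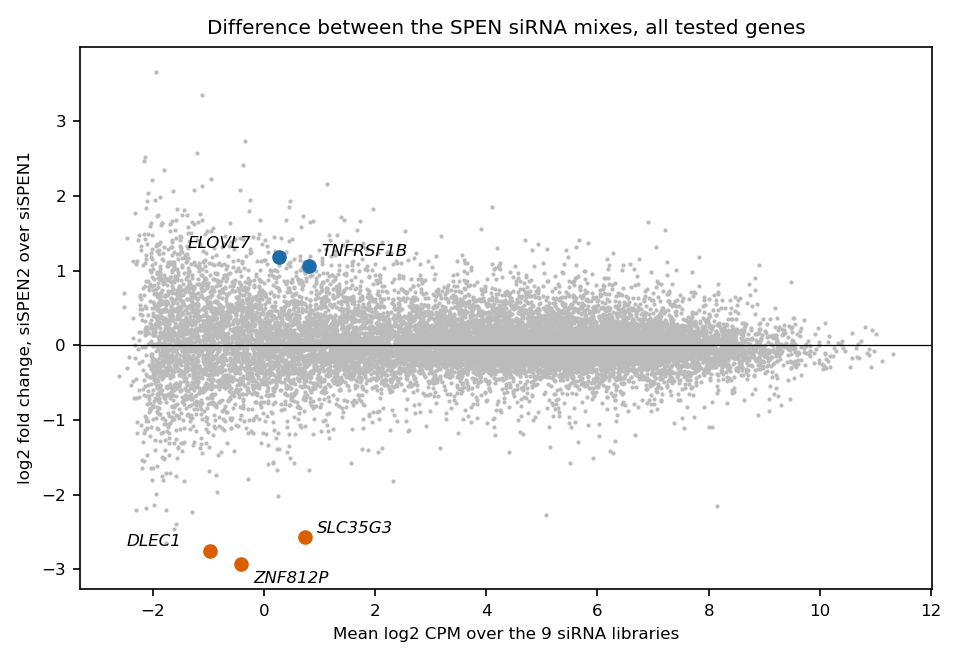
Difference between the mixes (y axis, log2 FC of siSPEN2 over siSPEN1) against the mean log2 CPM over the 9 siRNA libraries (x axis), each grey point being 1 of the 16448 tested genes. ZNF812P (-2.93), DLEC1 (-2.75) and SLC35G3 (-2.57) sit at the lower edge, while ELOVL7 (1.19) and TNFRSF1B (1.06) lie within the upper part of a broad cloud of genes of like abundance.

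The scrambled control was not at the level of untransfected cells. ELOVL7 was at 0.634 to 0.826 CPM in PXGL WT, 2.77-fold the siScr mean, and its siSPEN1 range overlapped PXGL WT whereas siSPEN2 was 2.95-fold above it. TNFRSF1B was at 1.40 to 1.99 CPM in PXGL WT, 2.72-fold the siScr mean, and both mixes overlapped PXGL WT. SLC35G3, at 0.794 to 0.948 CPM in PXGL WT, was 2.12-fold the siScr mean and overlapped siSPEN2, with siSPEN1 4.66-fold above PXGL WT. The mean of its copy SLC35G5 in PXGL WT was 4.23-fold that of siScr. For SLC35G5, siSPEN1 lay 2.04-fold above PXGL WT and siSPEN2 lay below it (0.694-fold), both without overlap. For ZNF812P and DLEC1, PXGL WT overlapped siScr, and siSPEN1 stood 14.4-fold and 6.43-fold above PXGL WT. Transfected and untransfected libraries carry different library series in their names, so series and transfection cannot be told apart, and these levels were not tested against each other.

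Across the 10 groups the order of levels differed from gene to gene. ZNF812P was highest in siSPEN1 (1.96 ± 0.637 CPM, SD, n = 3), and the other 9 group means lay between 0.109 and 0.252 CPM, each overlapping its neighbour in the order. SLC35G3 was highest in siSPEN1 (4.10 ± 0.433 CPM), then XIST KO (1.29 ± 0.0842 CPM). CRISPRi UT, PXGL WT, CRISPRi Dox and siSPEN2 (0.932, 0.879, 0.857 and 0.700 CPM) followed, each overlapping the next.

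At the low end of SLC35G3, siScr (0.415 CPM) stood clear of its neighbours in the order, XACT KO and NaiveCult WT overlapped (0.142 and 0.0711 CPM), and Primed WT had 0 counts, which allows up to 0.0179 CPM over the group (3 counts, counting error only). DLEC1 was highest in siSPEN1 (1.20 ± 0.0501 CPM), then Primed WT (0.576 ± 0.1 CPM), both clear of the group below. The other 8 means, from CRISPRi Dox (0.282 CPM) to XACT KO (0.0323 CPM), overlapped one after another.

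ELOVL7 was highest in Primed WT (15 ± 1.86 CPM), then siSPEN2 (2.18 ± 0.415 CPM), both clear of the next group. Its siSPEN1 and CRISPRi UT levels overlapped (0.959 and 0.957 CPM), as did the run from CRISPRi Dox (0.776 CPM) through PXGL WT, XIST KO, XACT KO and NaiveCult WT to siScr (0.267 CPM). TNFRSF1B was highest in XACT KO and NaiveCult WT (40.6 ± 11.2 and 31.7 ± 8.64 CPM), which overlapped and stood clear of the rest. Primed WT, siSPEN2, CRISPRi Dox, PXGL WT, CRISPRi UT and siSPEN1 (4.15, 3.02, 2.73, 1.62, 1.5 and 1.45 CPM) followed with overlaps, then, clear of these, XIST KO (1.05 CPM) and siScr (0.596 CPM), which overlapped.

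Loss of XIST asks whether the members respond when the RNA partner of SPEN is removed. Of the 5 members tested among 16877 genes in XIST KO against PXGL WT, 1 rose and 1 fell at an adjusted p below 0.05, while 13.3% of all genes passed in the upward and 12.6% in the downward direction, and 0 of the 5 were also past a log2 FC of 1 or -1, as were 1.07% and 0.468% of all genes. SLC35G3 was at 1.20, 1.34 and 1.34 CPM in XIST KO and 0.794, 0.948 and 0.894 CPM in PXGL WT, without overlap (log2 FC 0.57, SE 0.21, edgeR adjusted p = 0.0466). As the XIST KO libraries are technical replicates of 1 clone, this p and the next ones treat 1 biological sample as 3. The call was lost with DESeq2 (adjusted p = 0.0748) and when any of 5 of the 6 libraries was left out (highest adjusted p 0.154, without PXGL WT replicate 1), and it was kept without PXGL WT replicate 2. SLC35G5, with which SLC35G3 may share reads, was also higher in XIST KO (log2 FC 0.65, SE 0.19, edgeR adjusted p = 0.0144).

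TNFRSF1B was at 1.10, 0.950 and 1.09 CPM in XIST KO and 1.40, 1.99 and 1.48 CPM in PXGL WT, without overlap (log2 FC -0.61, SE 0.20, edgeR adjusted p = 0.0268). Its call was lost without PXGL WT replicate 2 (log2 FC -0.45, adjusted p = 0.136), XIST KO replicate 2 (-0.54, 0.106) or XIST KO replicate 3 (-0.65, 0.0537). ZNF812P (log2 FC 0.35, adjusted p = 0.697), DLEC1 (0.07, 0.936) and ELOVL7 (-0.12, 0.803) did not pass, and their 95% intervals ran from -0.69 to 1.38, -0.81 to 0.95 and -0.65 to 0.41.

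With CRISPRi of XIST, 3 members passed the count filter among 16693 genes, and TNFRSF1B was the 1 that rose, against 17.2% of all genes that passed upward. It was at 3.68, 1.93 and 2.58 CPM in CRISPRi Dox and 1.46, 1.62 and 1.42 CPM in CRISPRi UT, without overlap (log2 FC 0.85, SE 0.22, edgeR adjusted p = 0.0112). Without CRISPRi Dox replicate 1, its highest library, the log2 FC was 0.58 and the adjusted p 0.0561. That library also had the lowest XIST, 6.52 CPM against 159 and 170 CPM in replicates 2 and 3 (642 to 698 CPM in CRISPRi UT), and the lowest SPEN, 208 CPM against 281.9 and 245 CPM (281 to 311 CPM in CRISPRi UT). The part of either in the TNFRSF1B values was not tested. SLC35G3 (log2 FC -0.14, 95% interval -0.66 to 0.38, adjusted p = 0.725) and ELOVL7 (-0.31, -0.78 to 0.16, 0.351) did not pass.

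DLEC1 was below the filter in the CRISPRi libraries, at 0.109, 0.315 and 0.421 CPM in CRISPRi Dox and 0.13, 0.0943 and 0.112 CPM in CRISPRi UT. The unfiltered log2 FC was 1.27 (adjusted p = 0.105), and it passed without CRISPRi Dox replicate 1 (1.68, adjusted p = 0.0207). That left-out library had the lowest XIST (6.52 CPM), and its DLEC1 level of 0.109 CPM lay inside the CRISPRi UT range. DLEC1 did not pass when a CRISPRi UT library was left out (edgeR adjusted p = 0.174 to 0.229). ZNF812P, also below the filter, gave an unfiltered log2 FC of 0.18 (adjusted p = 0.88). TNFRSF1B thus had opposite directions in the 2 XIST systems. In a fit of both experiments, made after these values were seen, the CRISPRi Dox change exceeded the XIST KO change by 1.48 (SE 0.31, edgeR adjusted p = 0.00179), and 21.8% of 17286 genes passed this test in either direction. Doxycycline was present in 1 arm only, and SPEN itself was 0.31 lower on the log2 scale in CRISPRi Dox (adjusted p = 0.0168). The part of either in the TNFRSF1B difference was not tested.

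In XACT KO against NaiveCult WT, 2 members passed the filter among 16472 genes and 0 passed the test by edgeR or DESeq2, with 0 at an unadjusted p below 0.05, against 0.206% of all genes higher and 0.219% lower. ELOVL7 was at 0.571, 0.259 and 0.230 CPM in XACT KO and 0.195, 0.325 and 0.518 CPM in NaiveCult WT, overlapping throughout (log2 FC 0.03, 95% interval -0.91 to 0.97). TNFRSF1B was at 44.2, 28.0 and 49.5 CPM in XACT KO and 31.2, 23.3 and 40.6 CPM in NaiveCult WT (log2 FC 0.37, 95% interval -0.00 to 0.73, adjusted p = 0.318).

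Among these 4 comparisons the largest changes of members lay between NaiveCult WT and Primed WT, where 3 members passed the filter among 18209 genes and all 3 passed both thresholds. TNFRSF1B was higher, as were 20.7% of all genes, and ELOVL7 and DLEC1 were lower, as were 28.6%. ELOVL7 was at 13.3, 14.8 and 17.0 CPM in Primed WT, 43.3-fold its NaiveCult WT mean (log2 FC -5.25, SE 0.24, edgeR adjusted p = 7.37e-09). DLEC1 was at 0.490, 0.553 and 0.686 CPM in Primed WT and 0.146, 0.0929 and 0.0225 CPM in NaiveCult WT (log2 FC -2.56, SE 0.48, edgeR adjusted p = 5.08e-04).

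TNFRSF1B, at 3.90, 4.50 and 4.04 CPM in Primed WT, was 7.65-fold higher in NaiveCult WT (log2 FC 3.10, SE 0.19, edgeR adjusted p = 6.06e-08). In PXGL WT its mean was 1.62 CPM, below Primed WT, so the naive groups of the 2 protocols lay on either side of the primed level, and protocol and library series cannot be told apart there. Summed trophoblast markers were 348 to 434 CPM in NaiveCult WT (0 of 7 genes at 0) and 390 to 535 CPM in XACT KO, against 10.3 to 10.7 CPM in Primed WT (2 of 7 at 0) and 23.8 to 46.2 CPM in the PXGL groups. Their part in the level of TNFRSF1B was not tested. SLC35G3 had 0 counts in the 3 Primed WT libraries and 9 counts in NaiveCult WT, at least 3.97-fold higher by the floor of 3 counts over the group, and was below the filter. Without a filter its log2 FC was 4.94 (edgeR adjusted p = 0.00966) and with all 30 libraries in the fit 4.8 (adjusted p = 2.32e-04), which would make 4 members that passed, but a fitted fold against 0 counts depends on the prior count. ZNF812P, below it too, was at 0.122 to 0.158 CPM in Primed WT and 0.09 to 0.268 CPM in NaiveCult WT, which overlapped.

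**Figure D3:**
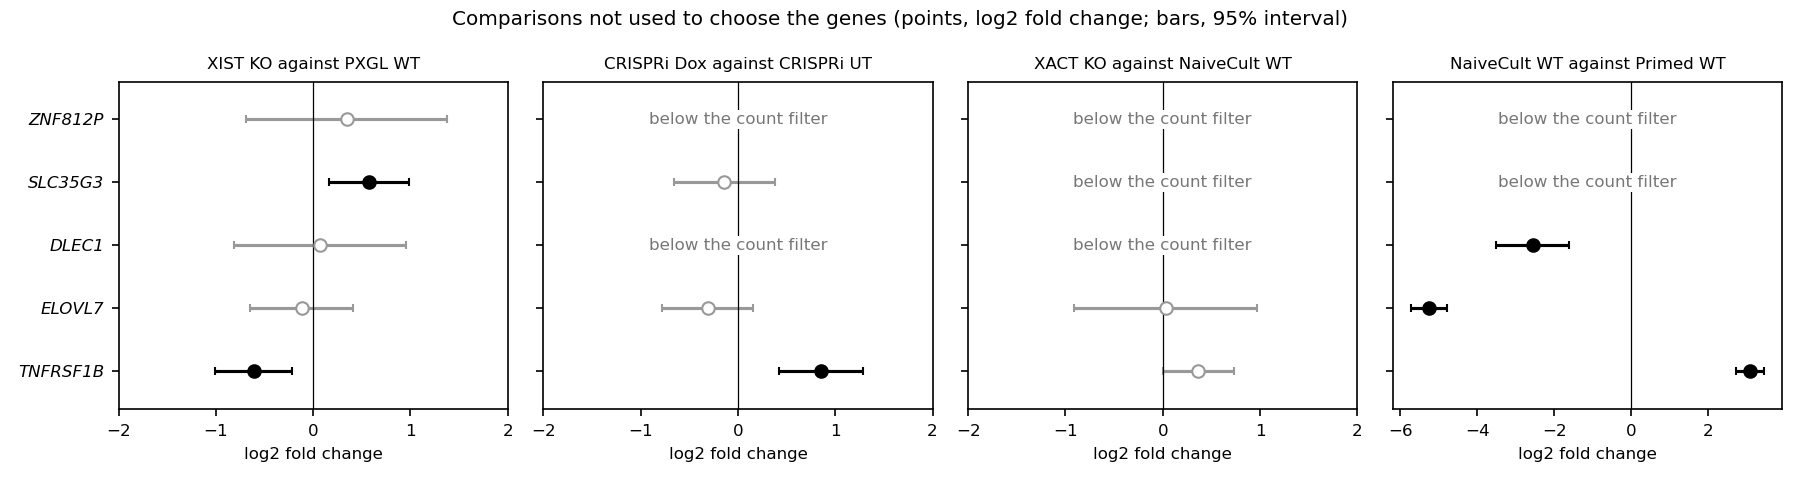
log2 FC (x axis) with its 95% interval for each member in the 4 comparisons that were not used to choose the genes, filled points marking an adjusted p below 0.05. TNFRSF1B lies on opposite sides of 0 in XIST KO (-0.61) and CRISPRi Dox (0.85), and ELOVL7 has the largest change, -5.25 in NaiveCult WT against Primed WT.

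Of all genes, the shares that rose and fell with the siRNA mixes at an adjusted p below 0.05 were 20.8% and 22.9% with mix 1, and 20.5% and 20.7% with mix 2. Fatty acid elongation adds carbon units to long-chain fatty acids, and of 12 genes of that pathway tested, 2 rose and 5 fell with mix 1 and 2 rose and 1 fell with mix 2, with median log2 FC of -0.15 and 0.09 beside medians of -0.00049 and -0.0048 over all genes. ELOVL4, which makes very long-chain fatty acids, rose with both mixes (log2 FC 0.99 and 0.69, edgeR adjusted p = 2.18e-09 and 4.77e-07). ELOVL2, an elongase of polyunsaturated fatty acids, fell with mix 1 (mean 4.07 to 1.56 CPM, log2 FC -1.37, adjusted p = 2.97e-07) and rose with mix 2 (5.64 CPM, log2 FC 0.46, adjusted p = 0.00689).

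Of 26 tested genes for TNF ligands, receptors and NF-kB signalling, 6 rose and 5 fell with mix 1 and 6 rose and 4 fell with mix 2. BIRC3, an inhibitor of apoptosis induced by NF-kB, fell with both mixes (log2 FC -2.64 and -2.11, edgeR adjusted p = 2.25e-04 and 7.95e-04), from a mean of 0.660 CPM to 0.0963 and 0.155 CPM. TNFRSF21, a death receptor of the same family as TNFR2, rose with mix 1 (61.4 to 120 CPM, log2 FC 0.98, adjusted p = 1.52e-11), and its log2 FC with mix 2 was -0.03 (adjusted p = 0.721). Between NaiveCult WT and Primed WT, 17 of 28 genes of this list were higher and 9 lower, against 41.9% and 42.7% of all genes. TNFAIP3, a brake on NF-kB, and TRADD, an adaptor of TNF receptor 1, were higher (log2 FC 4.51 and 3.85), and the receptors CD40 and TNFRSF10A were lower (-8.24 and -6.86).

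Of 25 tested SLC35 transporters, 6 rose and 6 fell with mix 1 and 6 rose and 8 fell with mix 2. SLC35G5 was the 1 past a log2 FC of 1 with each mix. Of 18 tested genes of the axoneme, the microtubule core of cilia, 5 rose and 0 fell with mix 1 and 5 rose and 2 fell with mix 2. CFAP46, a subunit of the central apparatus of the axoneme, rose with both mixes (9.06 to 18.1 and 17.0 CPM, log2 FC 1.02 and 0.90, edgeR adjusted p = 1.96e-08 and 1.27e-07). FOXJ1, the regulator of motile cilia genes, fell with mix 2 (log2 FC -2.04, SE 0.52, adjusted p = 0.00323) from a mean of 0.356 CPM.

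Short double-stranded RNA can set off innate sensors, so 11 tested genes for RNA sensing and the interferon response were counted beside the members. The scrambled control was itself a transfected siRNA, so a response common to all siRNA groups cannot show in these counts. Of these, 1 rose and 4 fell with mix 1 and 2 rose and 5 fell with mix 2. OAS1, which senses double-stranded RNA, fell from a mean of 24.2 CPM in siScr to 13.8 and 9.01 CPM (log2 FC -0.80 and -1.43, edgeR adjusted p = 1.12e-08 and 3.75e-12), and IFIT5, which binds foreign RNA, rose (log2 FC 0.64 and 0.46, adjusted p = 3.73e-04 and 0.00645). Of 12 tested zinc finger genes within 500 kb of ZNF812P, 4 rose and 2 fell with mix 1, and 3 rose and 3 fell with mix 2.

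Genes near the members were examined because position was not used to choose them. Of 19 listed genes within 100 kb, 17 were tested, of which 8 rose and 1 fell with mix 1 and 4 rose and 2 fell with mix 2. Over all genes tested, 20.8% rose and 22.9% fell with mix 1, and 20.5% rose and 20.7% fell with mix 2. PLCD1, a phospholipase C that starts 9563 bases upstream of DLEC1 and is read in the opposite direction, was the 1 neighbour past a log2 FC of 1. Its mean was 4.10 CPM in siScr, 16.7 CPM with mix 1 and 6.52 CPM with mix 2 (log2 FC 2.03, SE 0.11, and 0.65, SE 0.11, edgeR adjusted p = 4.96e-12 and 8.6e-05), the same order of groups as DLEC1. On the other side of DLEC1, MYD88, an adaptor of Toll-like receptors, rose with mix 1 (log2 FC 0.39, adjusted p = 2e-06), and the overlapping ACAA1, a peroxisomal thiolase, fell (-0.17, adjusted p = 0.0268). CTDSPL, a phosphatase, rose with both mixes (0.50 and 0.65, adjusted p = 1.12e-05 and 3.17e-07).

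ZNF562, which shares sequence with ZNF812P and starts 19792 bases from it, rose from a mean of 98.5 CPM to 156 CPM with mix 1 and 113 CPM with mix 2 (log2 FC 0.67 and 0.19, adjusted p = 3.24e-10 and 0.00283). Beside SLC35G3, NLE1, a ribosome assembly factor, rose with mix 1 (0.40, adjusted p = 2.24e-05). None of the 4 tested neighbours of ELOVL7 and TNFRSF1B had an absolute log2 FC above 0.2 with either mix, and DEPDC1B, at 0.20 (adjusted p = 0.0231) with mix 1, was the 1 of them that passed.

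**Figure D4:**
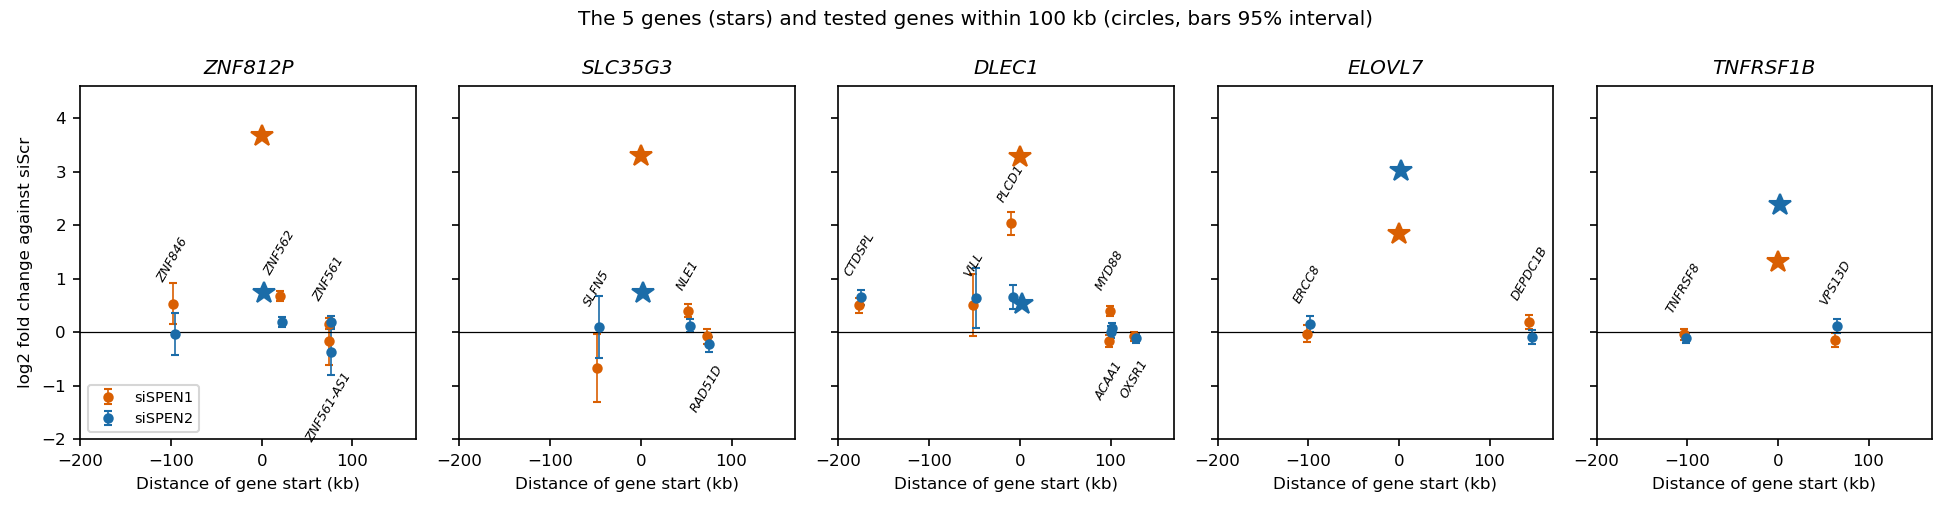
log2 FC against siScr (y axis) with mix 1 (orange) and mix 2 (blue) for each member (stars) and its tested neighbours (circles, bars 95% interval). The x axis gives the distance of the neighbour's start from the member's in kb, positive in the direction in which the member is read. PLCD1, beside DLEC1, shows 2.03 with mix 1 and 0.65 with mix 2, and all other neighbours stay below 1.

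The genes whose levels followed each member most closely over the 10 group means of log2(CPM + 1) were found among 16644 genes. Such a likeness over 10 points that share the siRNA, protocol and library-series contrasts is a description only. The lists were checked with all 30 libraries as points and with a pseudocount of 0.1 in place of 1. In 5 of 10 such checks most of a member's 3 genes were replaced. For ELOVL7 they were GJA4, BMP8B and ZNF69 (Pearson r 0.992, 0.987 and 0.987), and for TNFRSF1B they were HTRA4, CYP11A1 and TWF2 (0.981 each). For SLC35G3 they were XRCC3, LINC02593 and CD38 (0.955, 0.937 and 0.919), for DLEC1 RCHY1, TNFRSF21 and MMRN2 (0.929, 0.88 and 0.854), and for ZNF812P POMK, LHX2 and NARF (0.899, 0.852 and 0.84).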

How the data were processed

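Per the methods, the authors trimmed reads with Trim Galore, mapped them with Bowtie 2 to hg38 and mm10, removed duplicates with Picard, kept alignments of mapping quality 10 or more, removed mouse feeder reads and counted exonic reads by strand with HTSeq 0.13.5. They deposited 1 table of raw counts per library, without normalization and with no pooled replicates. Ambiguous or multiply mapped reads were dropped, which lowers genes with near copies.

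CPM values are counts divided by the library total. edgeR 4.0.16 (TMM factors, filterByExpr with a minimum count of 10, quasi-likelihood F-test, Benjamini-Hochberg adjustment over all genes tested) was run in R 4.3.3 on the libraries compared, with the 9 siRNA libraries in 1 fit. An exact permutation test of 3 against 3 libraries cannot go below p = 0.1 and was not used. The script was tested on simulated data. Counts per pair of replicates differed by more than sampling noise. Same-numbered siSPEN1 and siSPEN2 libraries deviated together (r = 0.199, 0.107 and 0.111), and with a replicate block 4 rather than 5 members passed between the mixes. The members were picked from that contrast, so these counts describe the fit and test nothing about the members. Total-based and TMM scaling differed by 0.16 on the log2 scale between NaiveCult WT and Primed WT, and by 0.02 or less elsewhere.

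The members and lists were chosen with earlier results of these data known. Named genes are the members, the targeted genes, per list at most 2 passing genes in each direction, passing neighbours within 100 kb and the 3 genes most like each member. Alternatives were DESeq2 1.42.0, RLE factors, other filters, all 30 libraries in the fit, a replicate block and leaving out each library. Protein and siRNA sequences were not used here.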

Additional observations from a re-analysis of the deposited data

Results flagged for a closer look

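The change of TNFRSF1B, the TNF receptor 2 gene, differed between the systems used to remove or repress XIST. The change in CRISPRi Dox minus the change in XIST KO was a log2 difference of 1.48 with an SE of 0.31 (interaction term in a fit of 12 libraries chosen after the values were seen, edgeR adjusted p = 0.00179). All 3 CRISPRi Dox libraries lay above all 3 CRISPRi UT libraries, and all 3 XIST KO libraries lay below all 3 PXGL WT libraries. Of 17286 genes, 21.8% passed the same test. XIST KO libraries are technical replicates of 1 clone, so this p treats 1 biological sample as 3, and the CRISPRi libraries are 3 clones, so clone and system cannot be told apart. Doxycycline was present in 1 arm only, and SPEN was also lower in CRISPRi Dox (log2 FC -0.31, edgeR adjusted p = 0.0168). The part of either in the difference was not tested. The XIST KO call and the CRISPRi Dox call were each lost when certain single libraries were left out.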

How the results depend on the processing

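Members that passed in XIST KO against PXGL WT numbered 2, but 1 with DESeq2, 1 with the replicate block, 0 with all 30 libraries in the fit, 0 with the 12 libraries of both XIST experiments (added after seeing the data) and 0 to 1 when each library was left out. Genes that passed there fell from 4376 to 1328 with 30 libraries and 2235 with 12. With more libraries the spread is shared with other groups. In CRISPRi Dox 1 member passed, but 2 with all 30 libraries, where DLEC1 joined (log2 FC 1.27, adjusted p = 0.0433). In XACT KO 0 passed, but with the replicate block TNFRSF1B did (0.36, adjusted p = 0.036), making 1, and genes that passed numbered 70 in the reported fit, 551 with the block, 672 with DESeq2, 762 without a filter and 1964 with 30 libraries. Leaving out 1 library there gave 0 to 447 genes. Same-numbered libraries did not all deviate together in those comparisons (lowest r -0.05 in XIST KO, -0.08 in CRISPRi Dox, -0.15 in XACT KO and -0.13 in NaiveCult WT against Primed WT) or against siScr (-0.18 and -0.15). A low r cannot show that libraries were unpaired. Both CRISPRi groups came from the same 3 clones, and the reported fit did not pair them. The block changed no other call outside the siRNA contrasts. The cause of these changes was not tested.

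Small changes turned direction when a library was left out. In XIST KO the ranges were -0.0292 (without PXGL WT replicate 2) to 0.835 for ZNF812P, -0.173 (without PXGL WT replicate 2) to 0.42 for DLEC1, which was -0.0318 without XIST KO replicate 3, and -0.37 to 0.0597 (without XIST KO replicate 3) for ELOVL7. In CRISPRi Dox the range was -0.341 to 0.0621 (without CRISPRi UT replicate 3) for SLC35G3. In XACT KO it was -0.495 (without XACT KO replicate 1) to 0.434 for ELOVL7, which was -0.243 and -0.00738 without NaiveCult WT replicates 1 and 2. None of these had passed the test. For ELOVL7, DLEC1 and TNFRSF1B in NaiveCult WT against Primed WT every alternative that tested them kept the direction and the call. Of 100 group levels recomputed with TMM or RLE factors, 94 moved by less than 1 SD. At 4 to 11 counts a library, as for ZNF812P in siScr, depth limits what can be resolved.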
